A study of Homo sapiens with 30 samples.

Results

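The enzymes that mature collagen after translation were followed across 30 arrays of 3 human carcinoma cell lines kept in oxygen or in hypoxia. The set was fixed by name and holds 10 genes: the prolyl 4-hydroxylase subunits P4HA1 and P4HA2, the prolyl 3-hydroxylases P3H1 and P3H2, the lysyl hydroxylases PLOD1, PLOD2 and PLOD3, and the lysyl oxidases LOX, LOXL1 and LOXL2. Of these, 8 had a probe set annotated to that symbol alone, 1 each, out of 12690 such genes on the array. PLOD1 and LOXL1 had none in the annotation used and are not analysed here. P4HA1, P3H1, P3H2, PLOD2, PLOD3 and LOXL2 were bright enough to be among the 7614 tested genes, whereas P4HA2, at rank 8135 by mean brightness, and LOX, at rank 8737, were dimmer and are given mainly as intensities.

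RCC4 renal carcinoma cells came as VHL-null cells and as cells with wild-type VHL put back (VHL-restored), with 10 arrays per genotype: 2 independent replicates each at 0 h and 18 h of hypoxia and 1 array for each of 1, 2, 4 and 6 h, and 1 array each for 18 h followed by 1 h or 4 h of renewed oxygen. H1299 non-small cell lung cancer cells, p53-null or with p53 put back (p53 wild-type), had 1 array each at 0 h and 24 h. HCT116 colon carcinoma cells, p53-null or p53 wild-type, had 1 array each at 0, 12 and 24 h. All cells grew as monolayers, and hypoxic cells were held in an anoxic incubator at under 0.01% oxygen. The labels do not say whether a genotype is 1 clone or a pool.

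Collagen chains are modified in the endoplasmic reticulum before they fold. Prolyl 4-hydroxylases, tetramers of an alpha subunit such as P4HA1 or P4HA2 with P4HB, make the hydroxyproline that keeps the triple helix stable at body temperature, and prolyl 3-hydroxylases and lysyl hydroxylases modify other residues. These hydroxylases use molecular oxygen, iron and 2-oxoglutarate, as do the EGLN enzymes that mark HIF alpha subunits for recognition by VHL. Outside the cell, lysyl oxidases, which need copper, convert lysine and hydroxylysine to aldehydes from which collagen and elastin cross-links form. P4HA1, P4HA2, PLOD2 and LOX are known as genes that HIF induces, and HIF is stable in oxygen where VHL is lost.

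The promoter windows of P4HA1, PLOD2 and LOX, 3 members with large hypoxic differences in VHL-restored or HCT116 cells, are shown because HIF binds the core ACGTG or GCGTG. Each window is RefSeq sequence of GRCh38.p14, 250 bases before to 50 after the annotated gene start, on the minus strand at chr10:73096817-73097116 for P4HA1, chr3:146161135-146161434 for PLOD2 and chr5:122078210-122078509 for LOX. Capitals mark a core on either strand, so that CACGT is ACGTG read on the opposite strand.
P4HA1: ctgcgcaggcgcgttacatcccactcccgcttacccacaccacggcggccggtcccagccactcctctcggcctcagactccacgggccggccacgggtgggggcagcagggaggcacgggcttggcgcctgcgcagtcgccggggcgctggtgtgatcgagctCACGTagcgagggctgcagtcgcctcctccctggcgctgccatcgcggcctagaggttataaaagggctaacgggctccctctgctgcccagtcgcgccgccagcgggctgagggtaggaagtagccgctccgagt
PLOD2: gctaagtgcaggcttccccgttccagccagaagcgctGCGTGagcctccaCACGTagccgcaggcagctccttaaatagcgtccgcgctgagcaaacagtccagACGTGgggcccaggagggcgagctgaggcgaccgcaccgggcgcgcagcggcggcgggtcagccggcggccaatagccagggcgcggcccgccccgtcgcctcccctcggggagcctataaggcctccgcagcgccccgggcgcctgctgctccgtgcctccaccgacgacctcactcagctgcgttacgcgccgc
LOX: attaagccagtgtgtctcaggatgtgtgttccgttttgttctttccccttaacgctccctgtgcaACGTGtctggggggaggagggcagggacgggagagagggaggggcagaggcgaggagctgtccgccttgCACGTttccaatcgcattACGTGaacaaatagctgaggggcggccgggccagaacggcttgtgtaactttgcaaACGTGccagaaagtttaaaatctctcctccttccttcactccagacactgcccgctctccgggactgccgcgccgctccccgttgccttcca
P4HA1 held 1 core, at -86 from the start, PLOD2 held 3, at -213, -200 and -146, and LOX held 4, at -185, -116, -98 and -42. The window that the table gives for P4HA2 lies inside the annotated gene and not before its outermost start, so it is not set beside these. Among the other members searched, P3H1 held 1 at -220, P3H2 held 1 at -239 and PLOD3 held 0. Of 35116 RefSeq windows of the same length, 48.45% held at least 1 core and 23.14% at least 2. A match describes these letters and not a bound site, and the arrays measured RNA and no binding.

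Facts of the arrays bear on what can be compared. Values are linear intensities on the authors' scale, reaching 5055 at most, and 18.4% to 40.3% of the entries of an array are null, taken here as 0. Control probe entries split the arrays in 2: 18 arrays leave 5 of them blank (set 1, median listed intensity 145 to 174) and 12 fill them (set 2, 201 to 222). The RCC4 arrays of replicate 1, every H1299 and HCT116 array and the RCC4 arrays at 2 h and 6 h are in set 1, and replicate 2 and the 1 h, 4 h and reoxygenation arrays are in set 2. Hence raw intensities are set side by side within a set. In VHL-restored cells the hypoxia gene ENO2, the neuronal enolase, read 205, 281, 611 and 909 at 0, 2, 6 and 18 h in set 1 but 259, 1293, 1309 and 1200 at 0, 1, 4 and 18 h in set 2, so the arrays labelled 1 h and 4 h lie with that at 18 h.

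The H1299 p53 wild-type arrays go against their time labels. Across the 7614 tested genes, the 24 h minus 0 h change of p53 wild-type H1299 had a Pearson r of -0.61 with that of p53-null H1299, against 0.61 between the HCT116 genotypes. BNIP3, a HIF-induced mitophagy gene, read 203 at 24 h and null at 0 h in p53-null H1299, but 5 on the p53 wild-type array labelled 24 h and 200 on that labelled 0 h. Results that use these arrays are given with and without them. Counts of tissue markers above the array median were close between the lines: 1 or 2 of 3 measured renal markers lay above the array median on RCC4 arrays and 0 or 1 on H1299 and HCT116 arrays, and 2 of 8 colon markers did so on HCT116 and H1299 arrays against 0 to 2 on RCC4 arrays. Summed renal marker intensity spanned 450 to 799 on RCC4, 209 to 271 on H1299 and 264 to 328 on HCT116 arrays. For the colon markers it spanned 519 to 942, 477 to 548 and 485 to 599 in the same order. RCC4 thus reached the highest sum on that list too, and its arrays include those of the brighter set 2. The colon markers KRT20 and GPA33 were null on every HCT116 array.

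P4HA1 and P4HA2 carry the catalytic sites of the 2 common forms of prolyl 4-hydroxylase. P4HA1 (chr10:73007217-73096866) read 437 and 850 in VHL-null RCC4 cells at 0 h, against 244 and 455 in VHL-restored cells, replicate 1 first. The difference was 0.85 and 0.71 on the log2 scale in the 2 replicates, so both pairs lay the same way. Here and below, log2 differences are of intensity plus 16 after subtraction of the array's median, so that a change is one relative to the median gene. In total RNA of a culture, fewer cells that express a gene and less RNA per cell cannot be told apart.

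The mean VHL difference of P4HA1 at 0 h was 0.78 (1.72-fold). It did not pass limma's test without a block (SE 0.178, adjusted p = 0.347), where 0 of the 6 tested members were called against 0.118% of all tested genes. With the replicate number, which equals the array set at these times, as a block, it passed (SE 0.101, adjusted p = 8.13e-05), as 1 of 3 members called against 7.51% of all genes. The blocked call was lost when dim genes were added to the test (adjusted p = 0.0516 with 12690 genes). P4HA2 (chr5:132190147-132227853) read 32 and 202 in VHL-null cells at 0 h, against 2 and 46 in VHL-restored cells. Both VHL-null arrays were above their VHL-restored partners, by 1.47 and 1.65. In the fit of 12690 genes with the block its difference was 1.56 (SE 0.123, adjusted p = 0.0224), the 1 member called there against 0.646% of all genes, and without the block it did not pass (SE 0.797, adjusted p = 1.0).

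After 18 h of hypoxia P4HA1 read 438 and 663 in VHL-restored cells, against 244 and 455 at 0 h. In VHL-null cells it read 520 and 846 at 18 h, against 437 and 850 at 0 h. In VHL-restored cells the 18 h array lay above its 0 h partner in both replicates, whereas the VHL-null arrays of replicate 2 were nearly level. The change was 0.71 (1.64-fold) in VHL-restored cells, which passed with the block (SE 0.101, adjusted p = 0.000246) and not without it (SE 0.178, adjusted p = 0.713), nor with the block over 12690 genes (adjusted p = 0.0846). The VHL-null change was 0.16 and did not pass with the block (SE 0.101, adjusted p = 0.781) or without it.

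P4HA2 read 30 and 196 at 18 h in VHL-restored cells, against 2 and 46 at 0 h. In VHL-null cells it read 51 and 256 at 18 h, against 32 and 202 at 0 h. The change in VHL-restored cells was 1.61 (3.05-fold), with 1.39 and 1.83 in the 2 replicates. In the fit of 12690 genes it passed with the block (SE 0.123, adjusted p = 0.0313), the 1 member called against 0.181% of all genes, and not without the block (adjusted p = 1.0). The VHL-null change was 0.44 and did not pass with the block (adjusted p = 0.711).

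**Figure D1:**
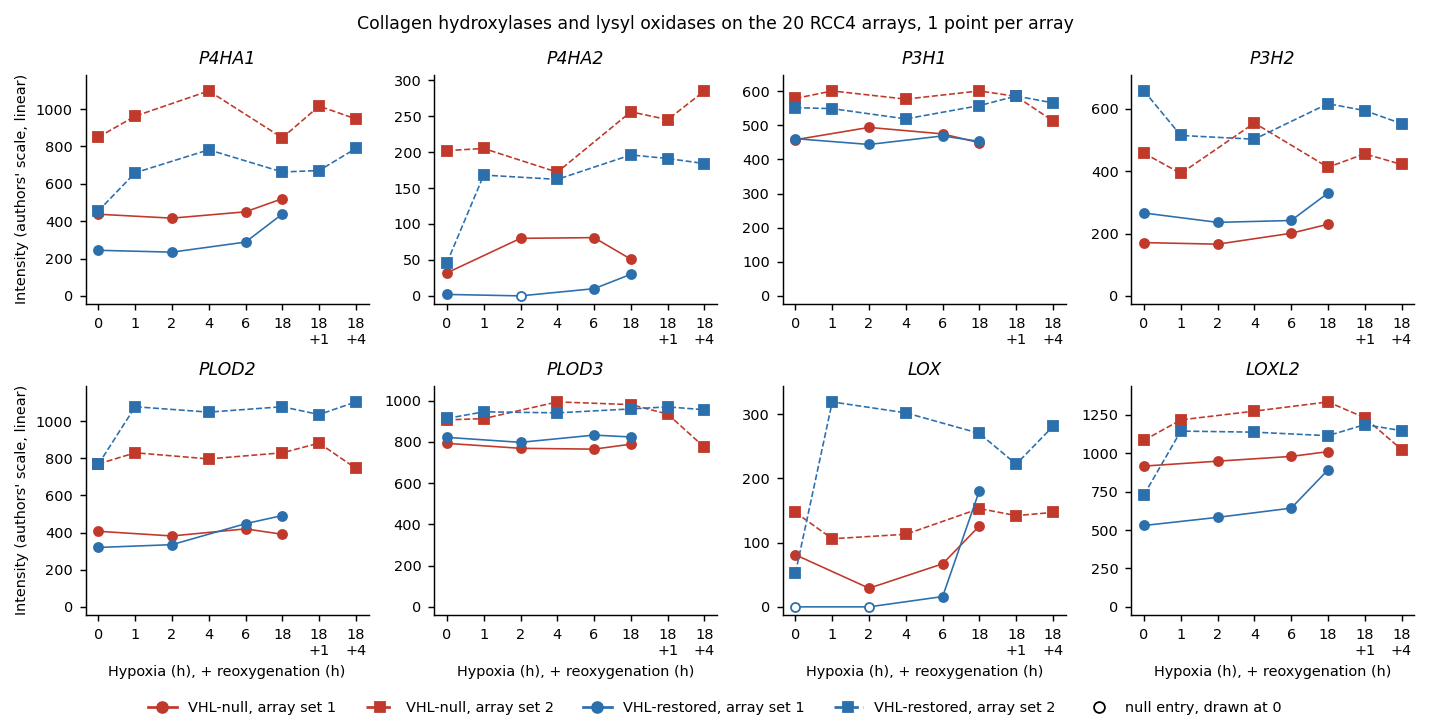
Intensity of the 8 measured genes on the 20 RCC4 arrays (authors' linear scale) against hours of hypoxia and of reoxygenation after 18 h, 1 point per array, VHL-null in red and VHL-restored in blue, with circles for array set 1, squares for set 2 and open symbols for null entries drawn at 0. P4HA1 lies higher in VHL-null cells at every state of a set, LOX in VHL-restored cells lies at 181 and 270 at 18 h, against null and 53 at 0 h, and PLOD3 and P3H1 stay nearly flat within a set.

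The lysyl hydroxylases parted. PLOD2, which hydroxylates lysines in the telopeptides of fibrillar collagen, read 492 and 1078 at 18 h in VHL-restored cells (gene at chr3:146069440-146161184), against 320 and 768 at 0 h. In VHL-null cells it read 391 and 830 at 18 h, against 407 and 770 at 0 h. Both 18 h arrays were above their 0 h partners in VHL-restored cells, and 1 of 2 was in VHL-null cells. The change was 0.59 (1.5-fold) in VHL-restored cells, which passed with the block (SE 0.119, adjusted p = 0.0055), not without it (SE 0.301, adjusted p = 1.0), and not with the block over 12690 genes (adjusted p = 0.237). In VHL-null cells it was 0.06 (block SE 0.119, adjusted p = 0.999).

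At 0 h the VHL genotypes did not order PLOD2 the same way in both replicates, with differences of 0.39 and -0.16. At 18 h PLOD2 was lower in VHL-null cells by 0.34 and 0.49, a mean of -0.41 that passed with the block (SE 0.119, adjusted p = 0.0441), not without it (adjusted p = 1.0), and not with it over 12690 genes (adjusted p = 0.370). The block called 2 of 6 members at 18 h, PLOD2 and P3H2, against 7.59% of all genes, and the fit without it called 0 against 0.0263%. PLOD3 (chr7:101205984-101217581), a lysyl hydroxylase that also adds sugars to hydroxylysine, read 789 and 981 at 18 h and 793 and 907 at 0 h in VHL-null cells, and 824 and 960 at 18 h and 822 and 914 at 0 h in VHL-restored cells. It was the steadiest member over all 30 arrays, with an SD of 0.21 on the centred log2 scale, below which 25.7% of tested genes lie. PLOD2 had the widest spread, an SD of 1.62, above that of 99.5% of tested genes. That size rests in part on null entries taken as 0, on the p53-null H1299 and HCT116 arrays at 0 h. Within set 1 its SD was 0.21 over the RCC4 arrays, 1.40 over H1299 and 2.20 over HCT116.

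Prolyl 3-hydroxylases likewise differed between members. P3H2 (chr3:189956728-190122278), which acts chiefly on basement membrane collagen, read 171 and 458 in VHL-null cells at 0 h, against 266 and 658 in VHL-restored cells. At 18 h it read 230 and 413 in VHL-null cells, against 330 and 617 in VHL-restored cells. Every VHL-null array at these times lay below its VHL-restored partner. The VHL difference was -0.61 at 0 h (0.657-fold, block SE 0.118, adjusted p = 0.00311) and -0.59 at 18 h (0.663-fold, block SE 0.118, adjusted p = 0.00426). Without the block neither passed (SE 0.30, adjusted p = 1.0 for both), nor did they with the block over 12690 genes (adjusted p = 0.191 at 0 h and 0.189 at 18 h).

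P3H1 (chr1:42746374-42767028), the partner of CRTAP and PPIB in the complex that modifies collagen I, read 458 and 579 in VHL-null cells at 0 h and 461 and 552 in VHL-restored cells. Its differences in the RCC4 contrasts at 0 h and 18 h were between -0.03 and 0.05 and none passed.

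Lysyl oxidases gave the largest hypoxic difference among the members in RCC4. LOX (chr5:122063195-122078259) read 181 and 270 at 18 h in VHL-restored cells, against null and 53 at 0 h. In VHL-null cells it read 126 and 153 at 18 h, against 81 and 147 at 0 h. Both 18 h arrays of VHL-restored cells were thus the highest of their set among these 8 arrays, and the VHL-restored 0 h arrays the lowest.

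The change of LOX in VHL-restored cells was 3.66 and 2.11 in the 2 replicates, a mean of 2.88 (7.38-fold), whose size depends on the value taken for the null entry. It did not pass over 12690 genes, with the block (SE 0.458, adjusted p = 0.104) or without it (SE 0.465, adjusted p = 0.273). In VHL-null cells the change was 0.34 (block SE 0.458, adjusted p = 0.942). The VHL difference of LOX at 0 h was 1.86 (block SE 0.458, adjusted p = 0.196), and at 18 h it was -0.68 (block SE 0.458, adjusted p = 0.708).

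LOXL2, a lysyl oxidase family member that also oxidises collagen IV, read 917 and 1085 in VHL-null cells at 0 h, against 530 and 730 in VHL-restored cells. After 18 h it read 1011 and 1335 in VHL-null cells, against 892 and 1115 in VHL-restored cells. In both replicates the VHL-restored 0 h array was the lowest of the 4 in its set. The VHL difference at 0 h was 0.61 (1.53-fold), and the change with hypoxia in VHL-restored cells was 0.71 (1.64-fold). Both passed with the block (SE 0.110, adjusted p = 0.00168 for VHL and 0.000542 for hypoxia), not without it (SE 0.209, adjusted p = 0.971 and 1.0), and not with the block over 12690 genes (adjusted p = 0.130 and 0.118). In VHL-null cells the change was 0.25 (block SE 0.110, adjusted p = 0.523).

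In VHL-restored cells, then, the block called 3 of 6 tested members after 18 h, P4HA1, PLOD2 and LOXL2, all higher, against 6.58% of all tested genes called in either direction and 3.7% called higher. The fit without the block called 0 members against 0.0394% of all genes. In VHL-null cells 0 members were called, with the block against 0.486% of all genes and without it against 0%, where 51 genes had an unadjusted p under 0.05. The VHL by hypoxia interaction, the test of whether the change differs between genotypes, called 0 members, against 0.565% of all genes with the block and 0% without it, where 45 genes had an unadjusted p under 0.05. With the block it was -0.56 for P4HA1 (SE 0.143, adjusted p = 0.131), -0.52 for PLOD2 (SE 0.168, adjusted p = 0.365) and -0.46 for LOXL2 (SE 0.155, adjusted p = 0.429). Over 12690 genes it was -2.55 for LOX (SE 0.648, adjusted p = 0.997) and -1.17 for P4HA2 (SE 0.174, adjusted p = 0.592). All 5 interactions were negative, a smaller change in VHL-null cells. These genes had the larger VHL-restored changes, which enter the interaction with a minus sign, so their shared sign is no separate evidence. With the block P3H1 gave 0.007, P3H2 0.013 and PLOD3 0.005, and 3125 of 7614 tested genes were above 0. A difference between genotypes was not shown for any member.

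**Figure D2:**
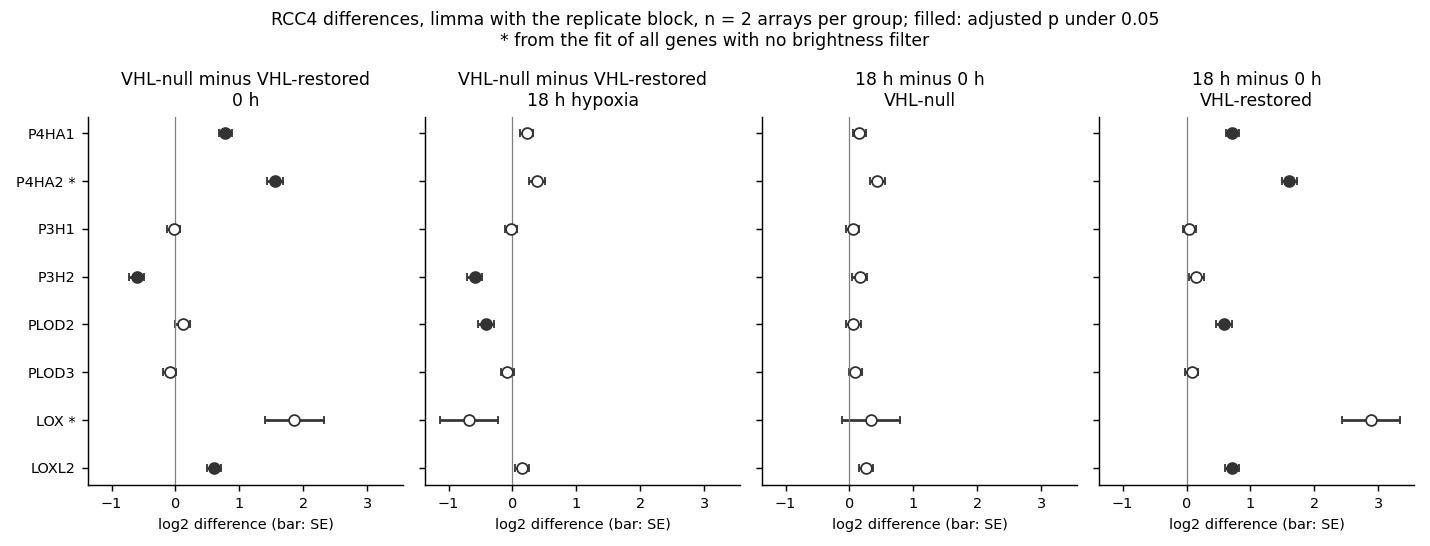
Log2 differences of the 8 genes in 4 RCC4 contrasts from limma with the replicate block, 2 arrays per group, with bars for 1 SE, filled points for an adjusted p under 0.05, and an asterisk for genes taken from the fit without a brightness filter. The VHL difference at 0 h and the hypoxic change in VHL-restored cells both lie above 0 for P4HA1, P4HA2, LOX and LOXL2, and these 2 contrasts share the VHL-restored 0 h arrays.

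All 20 RCC4 arrays together gave 10 pairs of VHL-null and VHL-restored arrays of the same state and replicate. P4HA1 was higher in VHL-null cells in 10 of 10 pairs, by 0.04 to 0.85 on the log2 scale, and P4HA2 in 10 of 10, by 0.02 to 2.61. P3H2 was lower in 9 of 10 pairs, down to -0.68, with 0.08 in the 4 h pair. The median difference of P4HA2 was 1.67 over the 4 pairs of set 1 and 0.25 over the 6 pairs of set 2. Its VHL-restored arrays of set 1 read 2, null, 10 and 30 at 0, 2, 6 and 18 h. The set 1 sizes thus depend on the constant added, and the 2.61 of the 2 h pair also on the value taken for null. A brighter probe set, annotated to both P4HA2 and P4HA2-AS1, did not keep this order in raw intensity. It read higher in VHL-null cells at 0, 2 and 6 h and after 1 h of oxygen. At 1, 4 and 18 h and after 4 h of oxygen it read lower, with 247 against 265 and 516 against 548 at 18 h. LOX changed order: it was higher in VHL-null cells in the 4 pairs at 0, 2 and 6 h and lower in the 6 pairs at 1, 4 and 18 h and after reoxygenation.

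Fitted with genotype and state, P4HA1 was higher in VHL-null cells by 0.49 (1.40-fold, SE 0.0812, adjusted p = 0.00056) and P3H2 lower by a log2 difference of -0.45 (0.730-fold, SE 0.105, adjusted p = 0.00686). These were the 2 of 6 members called, against 15.1% of all tested genes. With the array set as a block 4 of 6 were called, against 34.2%: also PLOD2, at -0.25 (SE 0.0868, adjusted p = 0.0382), and LOXL2, at 0.25 (SE 0.0941, adjusted p = 0.0487). Over 12690 genes PLOD2 and LOXL2 lost the blocked call (adjusted p = 0.085 and 0.104). For P4HA2 the blocked fit over 12690 genes gave 0.92 (SE 0.248, adjusted p = 0.0187), and the fit without the block did not pass (adjusted p = 0.106). The blocked fit over 12690 genes called 3 of 8 members, P4HA1, P4HA2 and P3H2, against 22.8% of all genes.

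Within the array sets, P4HA1 passed in each, at 0.62 in set 1 (adjusted p = 0.0040) and 0.40 in set 2 (adjusted p = 0.00312), and P3H2 did so at -0.44 (adjusted p = 0.00173) and -0.46 (adjusted p = 0.00323). PLOD2 did not keep its direction, at 0.036 in set 1 (adjusted p = 0.901) and -0.44 in set 2 (adjusted p = 0.000929). LOXL2 was 0.57 higher in set 1 (adjusted p = 0.00621) and 0.042 in set 2 (adjusted p = 0.699). Set 1 alone called 3 of 6 members and 1117 of 7614 tested genes. Set 2 alone called 3 of 6 members and 3478 of 7614 tested genes, so a call there sets a member little apart. Times differ between the sets, so a set difference and a time difference cannot be told apart.

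**Figure D3:**
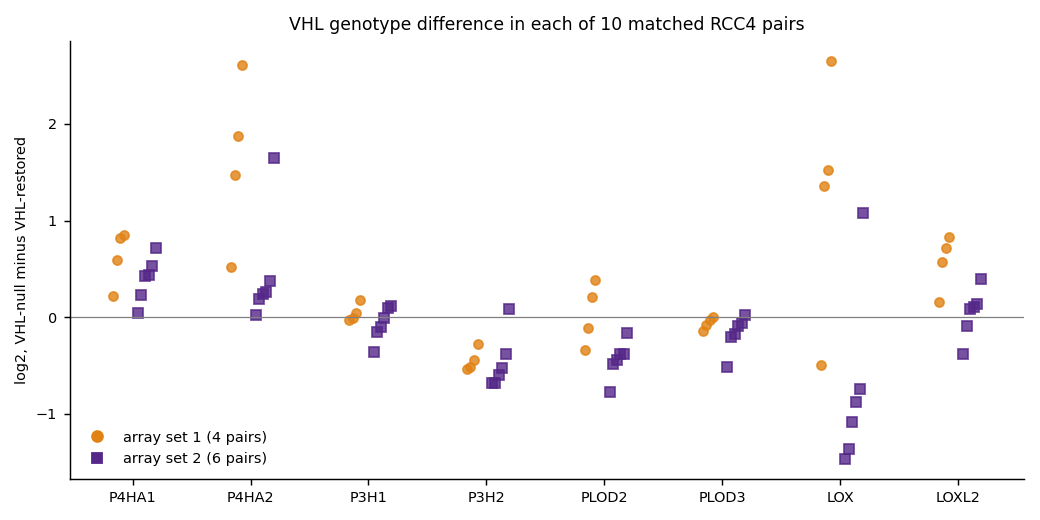
VHL-null minus VHL-restored difference (log2) in each of the 10 matched RCC4 pairs, 1 point per pair, with circles for the 4 pairs of array set 1 and squares for the 6 of set 2, ordered by value within a set. All 10 points of P4HA1 and of P4HA2 lie above 0, 9 of 10 of P3H2 lie below, and those of LOX lie on both sides.

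The time courses were read within a set. In VHL-restored cells of set 1, P4HA1 read 244, 234, 288 and 438 at 0, 2, 6 and 18 h, and PLOD2 read 320, 335, 448 and 492. LOX read null, null, 16 and 181 at these times, and LOXL2 read 530, 583, 643 and 892. The 2 h arrays were thus near 0 h for these 4 genes, PLOD2 was already 0.51 above 0 h at 6 h on the log2 scale, and P4HA1, LOX and LOXL2 had most of their difference between 6 h and 18 h. In set 2 the VHL-restored array labelled 1 h already read 659 for P4HA1, 168 for P4HA2, 1078 for PLOD2, 319 for LOX and 1145 for LOXL2, close to 663, 196, 1078, 270 and 1115 at 18 h. Each state outside 0 h and 18 h is 1 array, so these courses have no replicate check.

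In VHL-null cells of set 1, P4HA1 read 437, 416, 450 and 520 at 0, 2, 6 and 18 h and LOX read 81, 29, 67 and 126. P4HA2 there read 32, 80, 81 and 51, higher at 2 h and 6 h than at either end. In set 2, VHL-null P4HA1 read 850, 962, 1097 and 846 at 0, 1, 4 and 18 h, so that its highest array was the one labelled 4 h and the 18 h array was level with 0 h.

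After the return of oxygen P4HA1, P4HA2, PLOD2, LOX and LOXL2 stayed above their 0 h arrays in VHL-restored cells. P3H2 was near its 0 h array on the centred log2 scale, at 0.009 and 0.087 after 1 h and 4 h of oxygen. Its raw intensity was 658 at 0 h and 595 and 553 at these times. After 18 h of hypoxia and then 1 h and 4 h of oxygen, set 2 VHL-restored cells read 663, 671 and 789 for P4HA1, 1078, 1036 and 1104 for PLOD2, 270, 222 and 281 for LOX and 1115, 1187 and 1148 for LOXL2. Adrenomedullin (ADM), a HIF-induced peptide hormone gene used here for contrast, read 765, 280 and 45 on the same arrays. By the 4 h array the log2 difference from 18 h was 0.52 for P4HA1, 0.31 for PLOD2, 0.33 for LOX and 0.31 for LOXL2, and -3.41 for ADM. The remaining members were above 0 there as well, P3H1 at 0.29, PLOD3 at 0.27, P4HA2 at 0.19 and P3H2 at 0.12. Values near 0.3 were thus also seen for P3H1 and PLOD3, which changed little with hypoxia. Other hypoxia genes on these arrays did not follow ADM: ENO2 differed by 0.36, BNIP3 by 0.33 and NDRG1 by 0.27, values like those of the members. VHL-null cells gave 0.33 for P4HA1, 0.02 for PLOD2, 0.12 for LOX and -0.21 for LOXL2, with -2.42 for ADM.

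In the fit of 20 arrays, 4 h of reoxygenation against 18 h called 0 of 6 members, against 0.801% of all tested genes, and with the array set as a block 0 of 6 against 2.63%. P4HA1 differed by 0.46 without the block (SE 0.157, adjusted p = 0.179) and by 0.38 with it (SE 0.150, adjusted p = 0.205). Over 12690 genes P4HA2 differed by 1.03 without the block (SE 0.654, adjusted p = 0.559) and by 0.31 with it (SE 0.519, adjusted p = 0.743). The reoxygenation arrays are in set 2 and the 18 h arrays in both sets, so the values without the block also hold a set difference. Within set 2, P4HA2 differed from 18 h by 0.19 in VHL-restored and 0.32 in VHL-null cells, and P4HA1 by 0.52 and 0.33. A fall of the members within 4 h was not detected, and these tests do not show that their levels stayed the same.

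**Figure D4:**
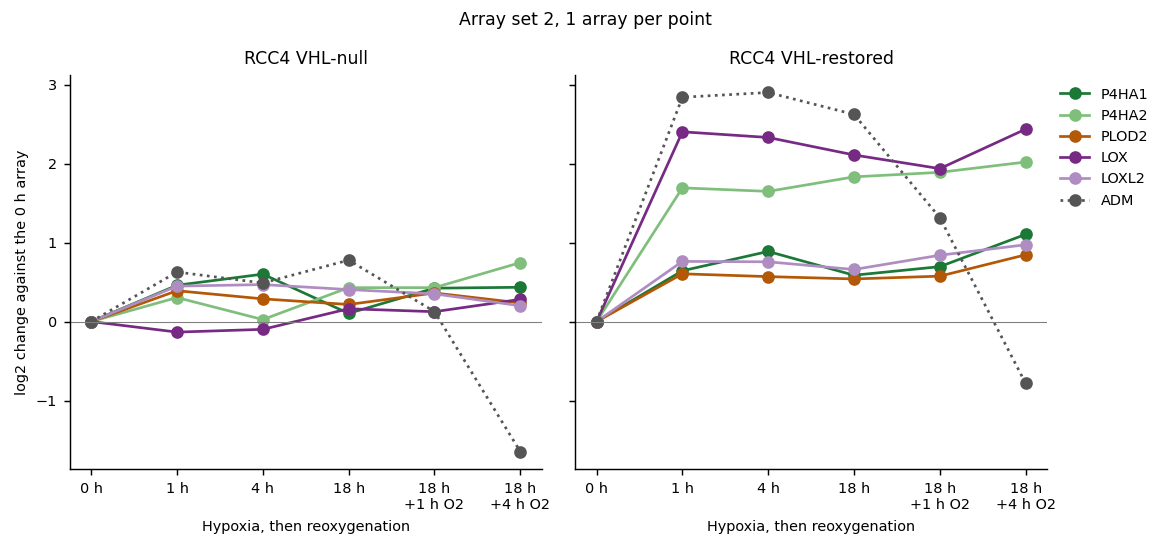
Log2 change from the 0 h array of the same genotype in array set 2, 1 array per point, over hypoxia and then reoxygenation, for P4HA1, P4HA2, PLOD2, LOX and LOXL2 and, dotted, ADM. In VHL-restored cells the 5 genes sit between 0.58 and 2.44 after reoxygenation, while ADM lies at -0.78 after 4 h.

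In HCT116 cells PLOD2 read null, 321 and 296 at 0, 12 and 24 h with p53 absent, and 11, 421 and 447 with wild-type p53. P4HA1 read 115, 433 and 719 in p53-null cells and 150, 436 and 715 in p53 wild-type cells. LOXL2 read 216, 339 and 364 in p53-null cells and 204, 349 and 444 in p53 wild-type cells. All 3 genes were higher at 12 h and 24 h than at 0 h in both genotypes, and P4HA1 was nearly the same in the 2 genotypes at each hypoxic time.

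By size, PLOD2 had the largest positive log2 difference of the 7614 tested genes in each of the 4 HCT116 contrasts with 0 h, 4.41 and 4.05 at 12 h and 4.28 and 4.13 at 24 h, p53-null first. Because its 0 h value is null or 11, the size depends on the constant added: with 64 in place of 16 the differences at 24 h were 2.48 and 2.79, each ranking 2. Of the 6 tested members, P4HA1 and PLOD2 were higher by a log2 of 1 or more in p53-null cells at 12 h, against 0.565% of all genes, and at 24 h, against 0.67%. In p53 wild-type cells P4HA1 and PLOD2 did so at 12 h, against 0.538%, and P4HA1, PLOD2 and LOXL2 at 24 h, against 0.801%. These contrasts set 1 array against 1 and have no replicate check.

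H1299 cells gave smaller levels of PLOD2. In p53-null H1299 cells P4HA1 read 342 at 24 h and 74 at 0 h, PLOD2 read 72 and null, and LOXL2 read 212 and 173. On the arrays labelled p53 wild-type, P4HA1 read 84 at 24 h and 370 at 0 h, PLOD2 read 18 and 122, and LOXL2 read 170 and 231. The 3 genes are thus higher on the array labelled 0 h in p53 wild-type cells, as BNIP3 was. P4HA1 and PLOD2 were higher at 24 h by a log2 of 1 or more in p53-null H1299, against 0.604% of all genes, and 0 members did so on the p53 wild-type arrays as labelled, against 0.394%.

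Tested over both lines with line and genotype as a block, 24 h of hypoxia called 0 of 6 members, and 0% of all genes were called, 629 having an unadjusted p under 0.05. P4HA1 differed by 1.18 (SE 0.721, adjusted p = 0.552) and PLOD2 by 2.21 (SE 1.01, adjusted p = 0.537). Without the H1299 p53 wild-type arrays 3 of 6 members were called, all higher, against 1.27% of all genes called in either direction and 0.722% called higher. P4HA1 then differed by 2.22 (4.65-fold, SE 0.102, adjusted p = 0.00478), PLOD2 by 3.63 (SE 0.354, adjusted p = 0.0192) and P3H2 by 0.51 (SE 0.0597, adjusted p = 0.0296), while LOXL2 at 0.69 did not pass (SE 0.149, adjusted p = 0.0977). Over 12690 genes 1 of 8 members, P4HA1, was called (adjusted p = 0.0491), against 0.118% of all genes.

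HCT116 alone called 4 of 6 members, all higher, against 3.81% of all genes in either direction and 2.02% higher. P4HA1 rose by 2.32 (5.01-fold, SE 0.104, adjusted p = 0.00451), PLOD2 by 4.2 (SE 0.105, adjusted p = 0.000913), LOXL2 by 0.90 (1.86-fold, SE 0.112, adjusted p = 0.0318) and P3H2 by 0.50 (SE 0.0780, adjusted p = 0.0482). For PLOD2 no fold is given, since its 0 h values are null and 11 and both the size and the SE depend on the constant added. Here the 2 genotypes serve as replicates, so these p-values measure repeatability over p53 genotype and not over independent cultures. P3H2 was dim in HCT116, at 34, 30 and 59 in p53-null cells and 42, 37 and 60 in p53 wild-type cells at 0, 12 and 24 h. P4HA2, a member with a sizeable difference in RCC4, read 50, 66 and 45 in p53-null and 42, 57 and 44 in p53 wild-type HCT116 cells, and LOX was null on all 10 H1299 and HCT116 arrays.

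**Figure D5:**
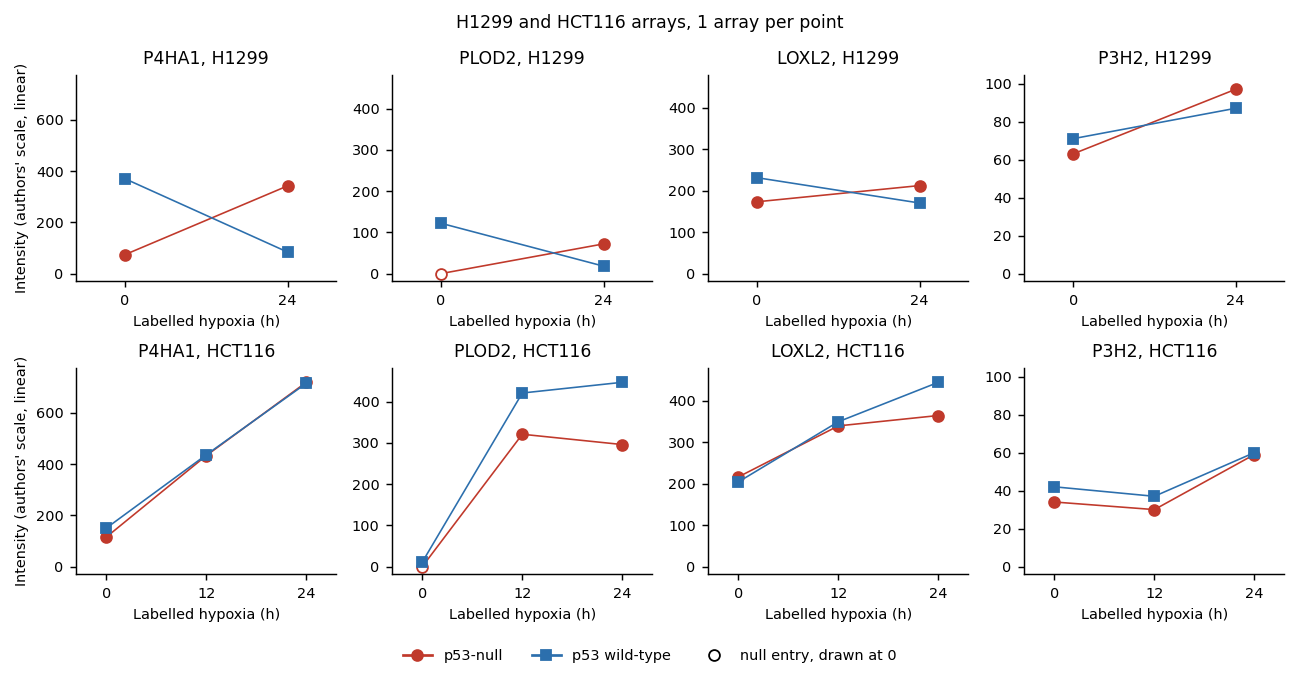
Intensity of P4HA1, PLOD2, LOXL2 and P3H2 (authors' linear scale) against labelled hours of hypoxia on the 4 H1299 arrays (top) and the 6 HCT116 arrays (bottom), 1 array per point, p53-null in red and p53 wild-type in blue, open symbols for null entries drawn at 0. The HCT116 lines of P4HA1 reach 719 and 715 at 24 h, and the H1299 lines of P4HA1 and PLOD2 cross.

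The p53 genotype, null minus wild-type over both lines, called 0 of 6 members and 0% of all genes, 526 having an unadjusted p under 0.05. PLOD2 had the largest difference, -0.69 (SE 0.562, adjusted p = 0.830), and in HCT116 alone -0.57 (SE 0.0858, adjusted p = 0.286). With null entries left missing in place of 0 the difference over both lines, the H1299 p53 wild-type arrays included, was 0.15. On the hypoxic HCT116 arrays PLOD2 read lower in p53-null cells at both times, 321 against 421 at 12 h and 296 against 447 at 24 h. P4HA1 differed by -0.12 (SE 0.493), and P3H1, P3H2, PLOD3 and LOXL2 by between -0.09 and 0.02.

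Late hypoxia (18 h in RCC4, 24 h elsewhere) minus 0 h over the 6 combinations of line and genotype called 0 of 6 members and 0% of all genes, 925 having an unadjusted p under 0.05. It gave 0.93 for P4HA1 (SE 0.568, adjusted p = 0.457) and 1.58 for PLOD2 (SE 0.841, adjusted p = 0.421). Without the H1299 p53 wild-type arrays it gave 1.5 for P4HA1 (SE 0.359, adjusted p = 0.130), 2.31 for PLOD2 (SE 0.691, adjusted p = 0.171) and 0.61 for LOXL2 (SE 0.128, adjusted p = 0.12). The members called were still 0, against 0.0657% of all genes. P3H1 and PLOD3 differed by 0.08 and 0.02 over all 6. Over 12690 genes LOX differed by 0.54 (SE 0.419, adjusted p = 0.615), and by 0.65 without the H1299 p53 wild-type arrays (SE 0.485, adjusted p = 0.547).

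Levels of each gene across the lines were compared within set 1, over 8 RCC4, 4 H1299 and 6 HCT116 arrays, as a description. The share of all genes whose ranges separate the lines was not counted, so separation is not read as particular to the members. P3H2 lay between 166 and 330 in RCC4, between 63 and 97 in H1299 and between 30 and 60 in HCT116, 3 ranges that do not overlap. LOXL2 lay between 530 and 1011 in RCC4, between 170 and 231 in H1299 and between 204 and 444 in HCT116, with RCC4 above both and the other two overlapping. PLOD2 lay between 320 and 492 in RCC4, and reached from null up to 122 on H1299 arrays and up to 447 on HCT116 arrays. LOX reached 181 in RCC4 and was null on every H1299 and HCT116 array of the set.

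P4HA1 lay between 234 and 520 in RCC4, between 74 and 370 in H1299 and between 115 and 719 in HCT116, ranges that overlap. For P4HA2 the ranges were null to 81 in RCC4, 23 to 39 for H1299 and 42 to 66 for HCT116, and these overlap too. P3H1 read 444 to 494 in RCC4, below the 534 to 605 of H1299 and the 516 to 608 of HCT116, which overlap each other. PLOD3 read 765 to 833, 791 to 840 and 744 to 834 in the 3 lines and did not separate them. Over all 30 arrays the SD on the centred log2 scale was 1.5 for LOX, 1.04 for P3H2, 0.98 for P4HA2, 0.82 for P4HA1, 0.77 for LOXL2 and 0.30 for P3H1.

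Lists of genes that act with the members were counted in the same RCC4 fits. Of 17 listed partners, such as the chaperone SERPINH1 and the 4-hydroxylase subunit P4HB, 8 were tested, of 19 collagen chains 11, and of 15 lysyl oxidase substrates and matrix partners 10. After 18 h in VHL-restored cells, 0 genes of the 3 lists were called without the block, against 0.0394% of all tested genes. With the block, where 6.58% of all genes were called, 1 of 8 partners was called, FKBP10, a collagen chaperone of the prolyl isomerase family, at 0.59 (SE 0.165, adjusted p = 0.0390). Of 11 collagen chains 2 were called higher, COL5A1 at 0.42 (SE 0.104, adjusted p = 0.0197) and COL6A1 at 0.34 (SE 0.0981, adjusted p = 0.0477), and of 10 substrates and partners 1, EFEMP2, an elastic fibre protein, at 0.48 (SE 0.110, adjusted p = 0.0114). The list medians were 0.05 for partners, 0.18 for collagen chains and 0.06 for substrates, against 0.05 for all tested genes, and 11 of 11 chains were above 0 against 4982 of 7614 genes. In VHL-null cells the chains had a similar median, 0.17 against 0.02 for all tested genes. There 9 of 11 chains were above 0 against 4467 of 7614 genes, and 0 chains were called with the block.

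For VHL at 0 h, 0 genes of the 3 lists were called without the block, against 0.118% of all genes. With the block, where 7.51% were called, LOXL4, a further lysyl oxidase, was higher in VHL-null cells by 0.63 (SE 0.103, adjusted p = 0.000767), and FN1, the matrix protein fibronectin, was lower, at -2.08 (SE 0.127, adjusted p = 1.55e-08). In the fit of all 20 RCC4 arrays without a block, which called 15.1% of all genes, 2 of 8 partners were higher in VHL-null cells, LOXL4 at 0.83 (SE 0.0958, adjusted p = 1.98e-05) and CRTAP at 0.28 (SE 0.0613, adjusted p = 0.00470). Of 11 collagen chains 2 were higher, COL6A3 at 0.40 (adjusted p = 0.00126) and COL1A1 at 0.39 (adjusted p = 0.0227), and 2 lower, COL18A1 at -0.40 (adjusted p = 0.0191) and COL4A2 at -0.33 (adjusted p = 0.00186). FN1 was the 1 of 10 substrates and partners that was called, at -2.02 (SE 0.132, adjusted p = 5.50e-08). These collagen chains and CRTAP were named after their values were seen. With the array set as a block, which called 12.5% of all genes higher and 21.6% lower, 2 partners were higher and 1 lower, 3 chains higher and 2 lower, and 4 substrates and partners lower. The list medians there were -0.02, -0.05 and -0.11, against -0.05 for all tested genes.

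Over the 20 RCC4 arrays, the tested genes whose centred log2 values were most like those of P4HA1 were CCNG1 (Pearson r = 0.96), DDB2 (0.96) and VDAC2 (0.94), and within the sets these 3 had r of 0.89 to 0.92 in set 1 and 0.91 to 0.95 in set 2. P4HA2 was most like UPRT (0.96), IDS (0.96) and OXSR1 (0.94), with 0.92 to 0.95 in set 1 and 0.83 to 0.88 in set 2. PLOD2 was most like BACE2 (0.96), DERA (0.95) and WDR45B (0.95), with 0.59 to 0.75 in set 1 and 0.93 to 0.95 in set 2. The arrays share set, scaling and genotype, so these values describe likeness over 8 arrays of set 1 and 12 of set 2 and carry no p.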

How the data were processed

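Total RNA of 30 samples was hybridised to a custom Affymetrix array of 35356 probe sets, 1 array per sample, per the labels' protocols. The deposited values are linear intensity in whole numbers. The software, the scaling and the meaning of null entries are not given in the sources used here. Array number and intensity over background limit the precision.

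Null entries were set to 0 and intensities were analysed as log2(value + 16). Array medians spanned 0.903 on the log2 scale, and each array's median over genes was therefore subtracted. A single symbol was annotated to 16905 of the 17478 named probe sets, the brightest per gene gave 12690 genes, and the upper 60% by mean (7614) were tested with limma 3.58.1 (R 4.3.3). P-values are two-sided, adjusted by Benjamini-Hochberg over all genes in the fit, and called under 0.05. The fit was tested on simulated data. The 8 RCC4 arrays at 0 h and 18 h had 1 mean per group. The 20 RCC4 arrays had terms for genotype and state. H1299 and HCT116 had line and genotype as a block for hypoxia, and line and time for p53.

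Replicate differences of the RCC4 groups correlated at 0.794 to 0.916 over 6 pairs of groups, across genes. The replicate number equals the array set there, so blocked values stand beside the unblocked ones. The 0 h and 18 h states of RCC4 are the ones with independent replicates, per the series' design text. Elsewhere genotypes or times serve as replicates.

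Members, gene lists, tests and alternatives were chosen with earlier results of these data known. All members are named with intensities, and with a log2 difference, SE and adjusted p where called with or without the block or differing by 0.5 or more; other differences are given for comparison. List genes are named where called for VHL at 0 h or hypoxia in VHL-restored cells. Likeness uses the 3 highest r per gene. Fits without the H1299 p53 wild-type arrays, within array sets, without the 1 h and 4 h arrays, and with the block and no filter together were added after seeing the data.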

Additional observations from a re-analysis of the deposited data

Results flagged for a closer look

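In H1299 the 24 h minus 0 h difference (log2) of 5 members ran in opposite directions in the 2 genotypes. It was 2.01 in p53-null and -1.95 in p53 wild-type cells for P4HA1, and 2.47 and -2.03 for PLOD2. It was 0.28 and -0.50 for P4HA2, 0.13 and -0.077 for P3H1, and 0.29 and -0.41 for LOXL2, p53-null first. Each value is 1 array against 1, and the difference between the genotypes was not tested. The p53 wild-type arrays are those that go against their time labels across all tested genes. In HCT116, P4HA2 gave -0.12 in p53-null and 0.079 in p53 wild-type cells, both small, and that difference was not tested either.

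A probe set annotated to both P4HA2 and its antisense gene P4HA2-AS1 was outside the comparisons. In VHL-restored RCC4 cells it read 265 and 548 at 18 h, against 64 and 172 at 0 h. It read 247 and 516 at 18 h in VHL-null cells, against 182 and 474 at 0 h. In HCT116 it read 4, 55 and 123 at 0, 12 and 24 h in p53-null cells and 8, 66 and 148 in p53 wild-type cells, where the P4HA2 probe set of the report showed no such course. Which of the 2 genes gives this signal cannot be told apart from the annotation.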

How the results depend on the processing

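With the replicate block, members called were 3 in place of 0 for VHL at 0 h, 3 in place of 0 for hypoxia in VHL-restored cells and 2 in place of 0 for VHL at 18 h, and without a brightness filter as well it called 1, 1 and 0. The block raised the genes called to 572 from 9, 501 from 3, 578 from 2, 37 from 0 (hypoxia in VHL-null cells) and 43 from 0 (interaction). With no filter and the block they were 82, 23, 72, 0 and 0. The array set as a block called 4 members in place of 2 over the 20 RCC4 arrays (2601 genes in place of 1151), and 200 genes in place of 61 for reoxygenation. For reoxygenation the members called ranged from 0 to 3 when a replicate was left out, 3 (3612 genes) without replicate 2, which leaves 18 h in array set 1 and reoxygenation in set 2. For the RCC4 contrasts of 8 arrays, leaving out any 1 array in the fit without the block called 0 members, as that fit did with all 8. The blocked fit was not run with an array left out, so this does not bear on the blocked calls. For 24 h of hypoxia in H1299 and HCT116 the members called were 4 in HCT116 alone, 3 without the H1299 p53 wild-type arrays and 1 without them and the filter, in place of 0. Genes called also moved by over 1.5 times elsewhere. For hypoxia in VHL-restored cells they were 12 with 64 added, 10 with probe sets averaged, 1 without a filter and 0 to 6 with 1 array left out, in place of 3. For VHL at 0 h they were 1 without a filter and 1 to 8 with 1 array left out, in place of 9. For VHL at 18 h they were 4 with null entries left missing, 0 with probe sets averaged, 1 without a filter and 1 to 2 with 1 array left out, in place of 2. Over the 20 RCC4 arrays they were 3478 in array set 2 alone, 3004 without replicate 1, 2888 with the set block and no filter, and 703 without the 1 h and 4 h arrays. For reoxygenation they were 252 without a filter, 145 with null entries left missing, 140 with probe sets averaged and 2166 with the set block and no filter. For 24 h of hypoxia they were 290 in HCT116 alone, 97 without the H1299 p53 wild-type arrays and 15 without these and the filter, in place of 0. For p53 they were 2 in HCT116 alone, and for late hypoxia 5 without p53 wild-type H1299, both in place of 0. The direction reversed for PLOD2 in 2 cases: its VHL difference over RCC4 was 0.036 in array set 1 alone, and its p53 difference was 0.15 with null entries left missing. The cause was not tested. Of 265 values of 21 member differences under an alternative, 240 kept direction and side of the threshold, 23 newly passed it and 2 reversed. Single arrays at most times, null entries and the H1299 labels limit these results.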
